A study of Mus musculus with 6 samples.

Results

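Meiotic break formation and strand exchange was followed through 9 genes, Spo11, Mei1, Prdm9, Dmc1, Psmc3ip, Mnd1, Meiob, Spata22 and Trip13, in the testes of 3 inbred mouse strains. Members were all probe sets whose platform annotation gave 1 of these symbols alone, which gave 8 genes with 12 probe sets, of 18193 such genes and 45037 probe sets that are not controls. No probe set carried the symbol Spata22 alone, so that gene was not analysed here. The array gives 1 intensity per probe set, a group of short probes against the 3′ part of a transcript, on a linear scale in arbitrary units.

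The groups were untreated C57BL/6, AKR/N and MRL/MpJ+/+ mice, all 8 weeks old, with 2 arrays of whole testis total RNA per strain. The series counts 2 mice per strain, and the labels do not tie an array to a mouse. The comparisons ask how testis transcripts differ between strains, so each group is a whole genetic background and not a single allele. Whole testis mixes germ cells of all stages with somatic cells, so fewer cells of a type and less RNA per cell cannot be told apart here. The sequence under the probes was not compared between strains, so its part in any difference of signal was not tested.

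In the first meiotic prophase, SPO11 cuts both strands of the DNA at sites that PRDM9 has marked on the chromatin, and MEI1 is needed for these breaks. The cut ends are trimmed to single strands, which the partners MEIOB and SPATA22 bind together with RPA. DMC1, the meiotic recombinase, then coats the strands and searches the homologous chromosome, helped by the heterodimer of PSMC3IP (also called HOP2) and MND1, and TRIP13 remodels HORMA domain proteins as chromosomes synapse. Mutant male mice that lack Spo11, Dmc1, Mei1, Meiob or Psmc3ip arrest in meiosis and are infertile.

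Of the 11 tested probe sets 3 differed among the strains, those of Spo11, Meiob and 1 of the 2 for Dmc1. Spo11 signal was highest in C57BL/6, lower in MRL/MpJ+/+ and lowest in AKR/N, while Meiob signal was lower in C57BL/6 than in both other strains. Spo11 and Meiob had 1 probe set each, so neither result could be compared with another probe set of its gene. The brighter Dmc1 probe set was lowest in AKR/N, and of the pairs of strains only MRL/MpJ+/+ against AKR/N was called. The other 8 tested probe sets, for Mei1, Psmc3ip, Trip13, Prdm9 and the second Dmc1 probe set, did not pass the threshold in any comparison.

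Intensities are means ± SD over n = 2 arrays. Differences are in log2(intensity + 16) between strain means, with the standard error (SE), and p-values come from limma, adjusted by the method of Benjamini and Hochberg over the 29692 probe sets tested and called under 0.05. A probe set was tested where at least 2 of the 6 arrays lay above their 40th percentile, which was 17.8 to 20.8 units, and 11 of the 12 member probe sets passed. By the F test over the 3 strains 3 of these 11 were called, against 15.1% of all tested probe sets.

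**Figure D1:**
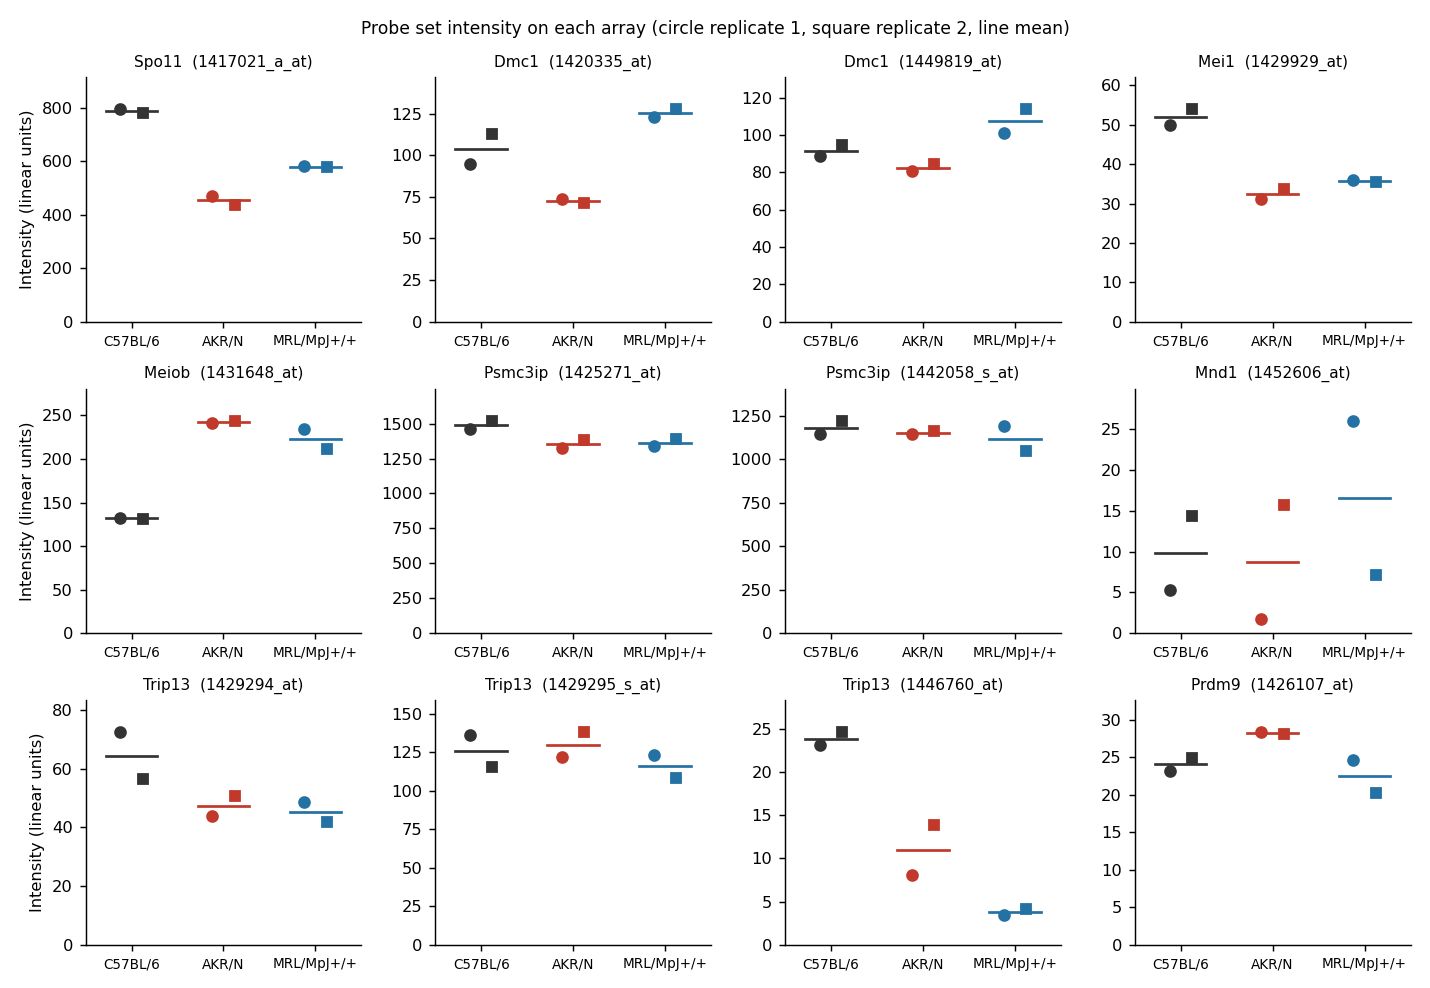
Each panel shows 1 member probe set, with intensity in linear units on the vertical axis and strain on the horizontal axis; points are arrays and lines are strain means of 2 arrays. For Spo11 the 3 strains separate without overlap between 438 and 795 units, and for Meiob both C57BL/6 arrays lie near 132 units, below the other 4 arrays.

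Spo11, the catalytic subunit of the break enzyme, was measured by probe set 1417021_a_at. Its intensity was 795.2 and 781.2 units on the C57BL/6 arrays, 471.6 and 438.0 in AKR/N, and 582.4 and 577.2 in MRL/MpJ+/+. The strains did not overlap, and the order C57BL/6, MRL/MpJ+/+, AKR/N held for every array. Strain means were 788 ± 9.94, 455 ± 23.7 and 579.8 ± 3.62 units in C57BL/6, AKR/N and MRL/MpJ+/+. AKR/N was at 0.577 times the C57BL/6 mean, a difference of -0.77 (SE 0.0766, adjusted p = 0.000112 by limma). The adjusted p stayed between 0.000351 and 0.00272 when any 1 array was left out. MRL/MpJ+/+ was at 0.736 times the C57BL/6 mean (-0.43, SE 0.0766, adjusted p = 0.00512), with adjusted p = 0.0836 where the variance was not modelled against the mean level. Between MRL/MpJ+/+ and AKR/N the difference was 0.34 (adjusted p = 0.0243). That call was lost without any 1 of the 4 arrays of these strains. The adjusted p became 0.0678 on dropping AKR/N replicate 1, 0.190 on dropping its replicate 2, 0.123 on dropping MRL/MpJ+/+ replicate 1 and 0.116 on dropping its replicate 2. It was 0.192 without the variance trend.

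Mei1, a protein needed for break formation, was dim, at probe set 1429929_at. It read 49.99 and 54.0 units in C57BL/6, 31.1 and 33.6 in AKR/N, and 36.1 and 35.6 in MRL/MpJ+/+. Both C57BL/6 arrays lay above the other 4, and the AKR/N arrays below those of MRL/MpJ+/+. The differences from C57BL/6 were -0.49 in AKR/N (95% interval -0.88 to -0.10, adjusted p = 0.117) and -0.39 in MRL/MpJ+/+ (-0.78 to 0.0014, adjusted p = 0.208), so neither passed the threshold over all probe sets.

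Prdm9, the zinc finger methyltransferase that places the breaks, lay near the lower limit of the tested range at probe set 1426107_at. Its values were 23.2 and 24.9 units in C57BL/6, 28.3 and 28.1 in AKR/N, and 24.6 and 20.3 in MRL/MpJ+/+. The AKR/N arrays were the highest, though only by a few units. The difference of AKR/N from C57BL/6 was 0.14 with a 95% interval of -0.34 to 0.63 (adjusted p = 0.757), and that of MRL/MpJ+/+ was -0.06, with an interval of -0.54 to 0.42 (adjusted p = 0.901). The latter interval holds the Spo11 difference of MRL/MpJ+/+ from C57BL/6, so a change of that size was not detectable at this signal.

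Dmc1, the meiotic recombinase, was measured by 2 probe sets designed from the same sequence record. Probe set 1420335_at read 94.7 and 112.7 units in C57BL/6, 73.7 and 71.4 in AKR/N, and 122.9 and 127.8 in MRL/MpJ+/+. The strains did not overlap, with AKR/N lowest and MRL/MpJ+/+ highest. MRL/MpJ+/+ stood at 125 ± 3.47 units against 72.5 ± 1.61 in AKR/N, a ratio of 1.73 and a difference of 0.67 (SE 0.132, adjusted p = 0.0123). The call was lost on dropping AKR/N replicate 1 (adjusted p = 0.0655) or 2 (0.0891) or MRL/MpJ+/+ replicate 1 (0.0672) or 2 (0.0913), and without the variance trend (0.0721). Against C57BL/6, AKR/N differed by -0.43 (95% interval -0.72 to -0.14, adjusted p = 0.0672) and MRL/MpJ+/+ by 0.24 (-0.05 to 0.53, adjusted p = 0.294).

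The second Dmc1 probe set, 1449819_at, read 88.8 and 94.4 units in C57BL/6, 80.5 and 84.3 in AKR/N, and 101.1 and 113.9 in MRL/MpJ+/+. The order of the strains was that of the first probe set, again without overlap, over a narrower range. The MRL/MpJ+/+ mean was above that of AKR/N by 0.33 (95% interval 0.04 to 0.61, adjusted p = 0.185), so this probe set was not called. As the mean of both probe sets, Dmc1 differed by 0.50 between these strains (adjusted p = 0.0265), an analysis added after the data were seen.

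The promoter windows of Dmc1, called between strains, and of Mei1 and Psmc3ip, not called, are shown to let the members of the break and exchange steps be compared. RefSeq entries for the assembly GRCm38.p6 gave 8 windows for 7 of the 9 member symbols, and none for Spo11 or Meiob. Each window has 250 bases before and 50 after the start of transcription. The windows are of the C57BL/6J reference and hold no AKR/N or MRL/MpJ+/+ sequence. Capitals mark matches, on either strand, to 6 motifs: CNCCTCAG (bound by STRA8 with MEIOSIN), TTTGGCGC (E2F), GGGCGG (GC box), CCAAT, TGACGTCA (CRE) and CACGTG (E-box). In the windows printed below no matches overlapped. The windows lie on the minus strand at chr15:79605060-79605359 for Dmc1, the plus strand at chr15:82082226-82082525 for Mei1 and the minus strand at chr11:101095386-101095685 for Psmc3ip.
Dmc1: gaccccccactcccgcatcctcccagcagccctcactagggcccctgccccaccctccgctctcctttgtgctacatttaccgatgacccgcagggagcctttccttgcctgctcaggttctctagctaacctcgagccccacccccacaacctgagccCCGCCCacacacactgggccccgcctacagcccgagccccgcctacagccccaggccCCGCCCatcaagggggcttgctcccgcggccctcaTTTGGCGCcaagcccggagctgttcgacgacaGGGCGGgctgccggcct
Mei1: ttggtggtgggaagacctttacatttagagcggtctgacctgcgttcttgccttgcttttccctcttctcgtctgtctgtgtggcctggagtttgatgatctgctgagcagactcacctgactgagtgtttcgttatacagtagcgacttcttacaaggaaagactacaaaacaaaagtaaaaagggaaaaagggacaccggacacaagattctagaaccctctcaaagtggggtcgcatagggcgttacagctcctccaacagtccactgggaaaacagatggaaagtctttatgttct
Psmc3ip: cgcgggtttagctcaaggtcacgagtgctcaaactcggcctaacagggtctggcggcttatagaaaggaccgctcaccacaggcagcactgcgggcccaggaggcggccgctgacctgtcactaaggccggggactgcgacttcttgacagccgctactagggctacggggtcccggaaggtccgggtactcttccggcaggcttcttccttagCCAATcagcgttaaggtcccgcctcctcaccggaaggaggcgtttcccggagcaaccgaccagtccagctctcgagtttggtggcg
The Dmc1 window held the E2F motif from base 2 after the start, a motif found in 0.514% of 32851 promoter windows, and 3 GC boxes, a motif found in 35.7%. Psmc3ip held 1 CCAAT box from base 36 before the start, present in 37.4% of windows. The Mei1 window held none of the 6 motifs; its share of G and C was 46.7%, against 69% for Dmc1, 62.7% for Psmc3ip and a median of 52.7% over all windows. Of the 8 member windows 1, a Prdm9 window not shown, held the motif bound by STRA8 with MEIOSIN, found in 7.94% of all windows. These letters describe the reference only.

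Psmc3ip, the partner of Mnd1 in strand exchange, had bright signal at both of its probe sets. Probe set 1425271_at read 1462 and 1521 units in C57BL/6, 1325 and 1382 in AKR/N, and 1337 and 1391 in MRL/MpJ+/+. The C57BL/6 arrays lay above the other 4, by a small margin. Its differences from C57BL/6 were -0.14 in AKR/N (95% interval -0.28 to 0.0066, adjusted p = 0.232) and -0.13 in MRL/MpJ+/+ (-0.27 to 0.018, adjusted p = 0.268). Between MRL/MpJ+/+ and AKR/N it was 0.01, with an interval of -0.13 to 0.16. Probe set 1442058_s_at had means of 1184 ± 56.5, 1154 ± 10.7 and 1120 ± 100.1 units in C57BL/6, AKR/N and MRL/MpJ+/+, and its strains overlapped. The s in its name marks a probe set that can match more than 1 transcript. Intervals for both probe sets in all comparisons excluded a difference as large as that of Spo11 between AKR/N and C57BL/6.

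Mnd1 was not tested, because only MRL/MpJ+/+ replicate 1 lay above its array's 40th percentile. Probe set 1452606_at read 5.26 and 14.4 units in C57BL/6, 1.71 and 15.7 in AKR/N, and 26.1 and 7.20 in MRL/MpJ+/+. Arrays of a strain differed more than strain means did, so these values give no order of the strains.

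Meiob, which binds single-stranded DNA at the breaks with Spata22, went the other way from Spo11. Probe set 1431648_at read 132.3 and 131.6 units in C57BL/6, 241.1 and 244.1 in AKR/N, and 234.5 and 210.9 in MRL/MpJ+/+. The C57BL/6 arrays lay far below the other 4, and the MRL/MpJ+/+ arrays below those of AKR/N. AKR/N stood at 1.84 times the C57BL/6 mean, 243 ± 2.14 against 132 ± 0.521 units (0.81, SE 0.103, adjusted p = 0.000673). MRL/MpJ+/+ stood at 1.69 times that mean, at 223 ± 16.7 units (0.69, SE 0.103, adjusted p = 0.00186). The comparisons share the C57BL/6 arrays. Meiob was called in both under all 17 alternative settings, with adjusted p of at most 0.0209 and 0.0308. MRL/MpJ+/+ and AKR/N differed by -0.12 (95% interval -0.34 to 0.11, adjusted p = 0.602).

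Trip13, the ATPase that removes HORMA domain proteins from chromosome axes, had 3 probe sets. The brightest, 1429295_s_at, read 136.6 and 115.4 units in C57BL/6, 121.8 and 138.1 in AKR/N, and 123.5 and 108.3 in MRL/MpJ+/+, and all strains overlapped. Probe set 1429294_at read 72.5 and 56.4 units in C57BL/6, 43.9 and 50.7 in AKR/N, and 48.5 and 41.8 in MRL/MpJ+/+. On the latter the C57BL/6 arrays were the highest (adjusted p = 0.277 against AKR/N and 0.205 against MRL/MpJ+/+).

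The third Trip13 probe set, 1446760_at, was dim and passed the filter through its C57BL/6 arrays alone, so a difference was built into its selection. It read 23.1 and 24.6 units in C57BL/6, 8.10 and 13.9 in AKR/N, and 3.50 and 4.19 in MRL/MpJ+/+. MRL/MpJ+/+ differed from C57BL/6 by -1.01 (SE 0.294, not called), and by -2.36 with a pseudocount of 1 and -0.37 with 64. It passed the threshold in 3 of 16 alternative settings, and those that kept the filter carry the built-in direction. As the mean of all 3 probe sets, Trip13 differed by -0.50 between MRL/MpJ+/+ and C57BL/6. That mean holds 1446760_at and its built-in direction, so no p-value is given. The brightest probe set alone differed by -0.11 and 1429294_at by -0.39.

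**Figure D2:**
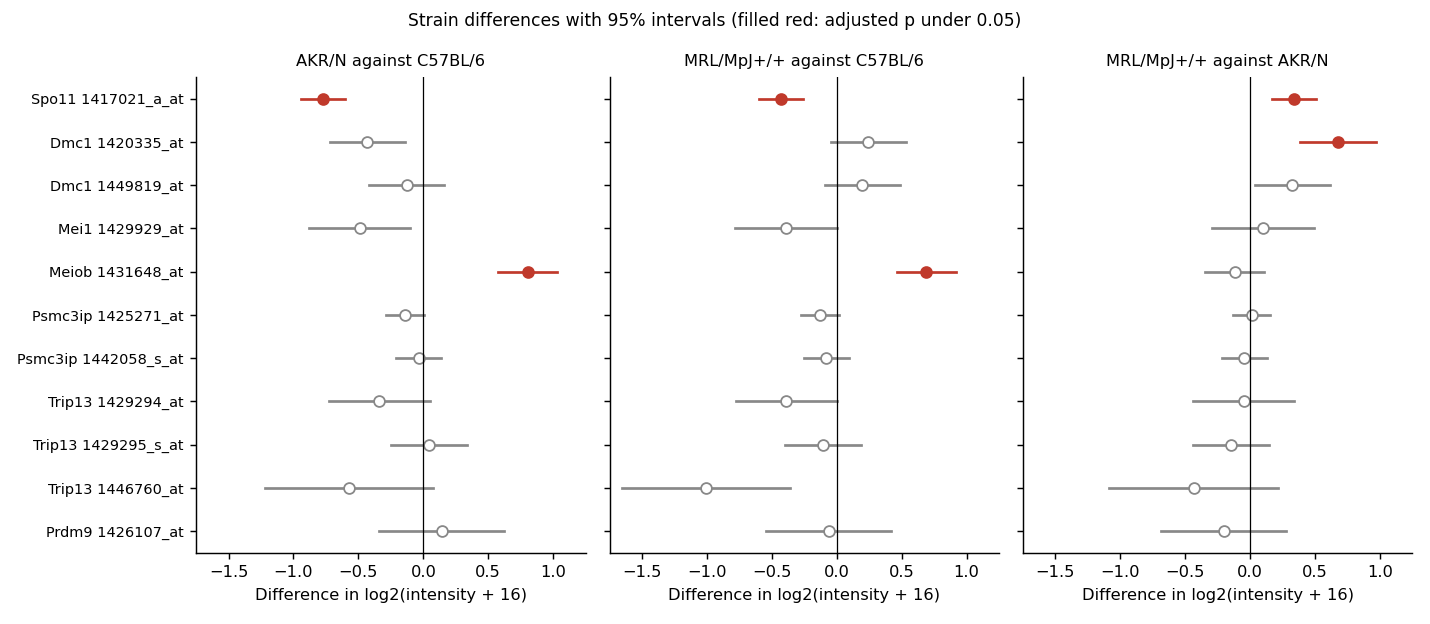
Points are differences in log2(intensity + 16) for the 11 tested member probe sets in each of 3 comparisons, and bars are 95% intervals from the limma fit with 2 arrays per strain. Filled red points have adjusted p under 0.05: Spo11 in all 3 panels, Meiob in both comparisons with C57BL/6, and 1 Dmc1 probe set between MRL/MpJ+/+ and AKR/N.

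By comparison, AKR/N against C57BL/6 gave 2 calls among the 11 member probe sets, 1 higher (Meiob) and 1 lower (Spo11), where 9.97% of all tested probe sets were called, 5.09% higher and 4.88% lower. MRL/MpJ+/+ against C57BL/6 gave the same 2 genes in the same directions, with 10.0% called over all, 5.07% higher and 4.95% lower. MRL/MpJ+/+ against AKR/N gave 2 higher (Spo11 and Dmc1) and 0 lower by limma, with 3.22% and 3.69% over all (6.91% in either direction). At an unadjusted p under 0.05 that comparison had 3 members higher and 0 lower, against 10.3% and 10.0% of all tested probe sets. At the same threshold AKR/N against C57BL/6 had 1 higher and 3 lower, against 12.3% and 11.5%. MRL/MpJ+/+ against C57BL/6 also had 1 higher and 3 lower, against 12.7% and 11.5%. The lower ones were Spo11 and the Trip13 probe sets 1429294_at and 1446760_at, the last with its direction fixed by the filter. With 11 probe sets of 7 genes, these counts do not set the members apart from the background.

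Without regard to the test, 7 of the 11 probe sets had both AKR/N arrays below both C57BL/6 arrays, on 5 of 7 genes (Spo11, Dmc1, Mei1, Psmc3ip and Trip13), where 26.2% of all tested probe sets did. Another 2 had both AKR/N arrays above, those of Meiob and Prdm9, against 26.2% of all. For MRL/MpJ+/+ against C57BL/6, 5 probe sets lay below and 3 above, against 24.7% and 27.5% of all. Between MRL/MpJ+/+ and AKR/N, 4 lay above and 3 below, against 26.9% and 23.7%. Median differences over the 11 were -0.14 for AKR/N and -0.11 for MRL/MpJ+/+ against C57BL/6, and -0.05 between MRL/MpJ+/+ and AKR/N. Over all tested probe sets these medians were -0.0027, 0.01 and 0.02. All these counts hold the Trip13 probe set 1446760_at, whose direction against C57BL/6 was fixed by the filter and whose AKR/N and MRL/MpJ+/+ arrays all lay under the filter limit. Without it, AKR/N against C57BL/6 had 6 of 10 lower and 2 higher without overlap, with a median of -0.13. MRL/MpJ+/+ against C57BL/6 then had 4 lower and 3 higher, with a median of -0.09, and MRL/MpJ+/+ against AKR/N 2 lower and 4 higher, with a median of -0.02. Probe sets of 1 gene share its transcript and are not independent, and both comparisons with C57BL/6 share its arrays.

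Few other genes of the recombination pathway were called. Of 52 further genes listed by role, 38 had a tested probe set, the brightest of which stood for the gene. In AKR/N against C57BL/6 none was called higher and 1 lower by limma (1 higher and 6 lower at an unadjusted p under 0.05), with a median of -0.10 and 28 of 38 below zero, beside 50.4% of all tested probe sets. In MRL/MpJ+/+ against C57BL/6 again none was called higher and 1 lower (7 higher and 5 lower at an unadjusted p under 0.05), with a median of -0.03 and 20 of 38 below zero, beside 48.0%. Between MRL/MpJ+/+ and AKR/N 1 was higher and 1 lower (5 higher and 3 lower at an unadjusted p under 0.05), with a median of 0.13 and 12 of 38 below zero, beside 47.5%. Calls over all tested probe sets, in either direction, were 9.97%, 10.0% and 6.91% in that order.

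In all, 3 genes of the list were called in some comparison. Rpa1, the large subunit of the single-strand binding complex RPA, read 2462 and 2638 units in C57BL/6 and 1791 and 2220 in AKR/N (-0.35, adjusted p = 0.0468). That call was lost without C57BL/6 replicate 1 or 2 (adjusted p = 0.0874 and 0.234) and without AKR/N replicate 1 (0.323 and a difference of -0.20). It was lost too without the filter (0.113), with a pseudocount of 1 (0.0553), without the variance trend (0.245) and with the shift by spermatocyte markers described further on (0.185). Brca2, which loads recombinases onto DNA, read 414.0 and 430.3 units in AKR/N and 524.2 and 568.7 in MRL/MpJ+/+ (0.36, adjusted p = 0.0265, and 0.0686 to 0.191 when 1 of those 4 arrays was dropped, and 0.186 without the variance trend). The Brca2 difference was 0.21 (adjusted p = 0.154) with the shift by spermatocyte markers and 0.0053 (adjusted p = 0.976) with each array centred on their level.

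Cntd1, a cyclin-like protein needed for crossovers, was the gene of the list with the smallest adjusted p. Probe set 1439405_x_at read 1265 and 1281 units in C57BL/6, 1150 and 1330 in AKR/N, and 849.7 and 925.8 in MRL/MpJ+/+. MRL/MpJ+/+ was lower than every array of both other strains, by -0.51 against C57BL/6 (adjusted p = 0.00301) and -0.47 against AKR/N (adjusted p = 0.00714). The latter had adjusted p = 0.0857 without AKR/N replicate 2 and 0.0632 without MRL/MpJ+/+ replicate 1, and both had lost the call without the variance trend (0.0836 and 0.146). The x in the name marks probes that can bind unrelated transcripts. Among the break machinery, 3 of 6 listed genes were tested and none was called in any comparison by limma (at an unadjusted p under 0.05, 1 was higher in MRL/MpJ+/+ than in AKR/N). Ankrd31, which acts at early break sites, read 25.4 and 10.5 units in AKR/N against 53.9 and 42.4 in MRL/MpJ+/+ (0.95, adjusted p = 0.0545). Of the further strand exchange genes, 4 of 6 were tested and none was called by limma, with 1 higher in MRL/MpJ+/+ than in C57BL/6 at an unadjusted p under 0.05. Round spermatid markers, given next, moved in the same comparison as Cntd1, and their part in its result was not tested.

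**Figure D3:**
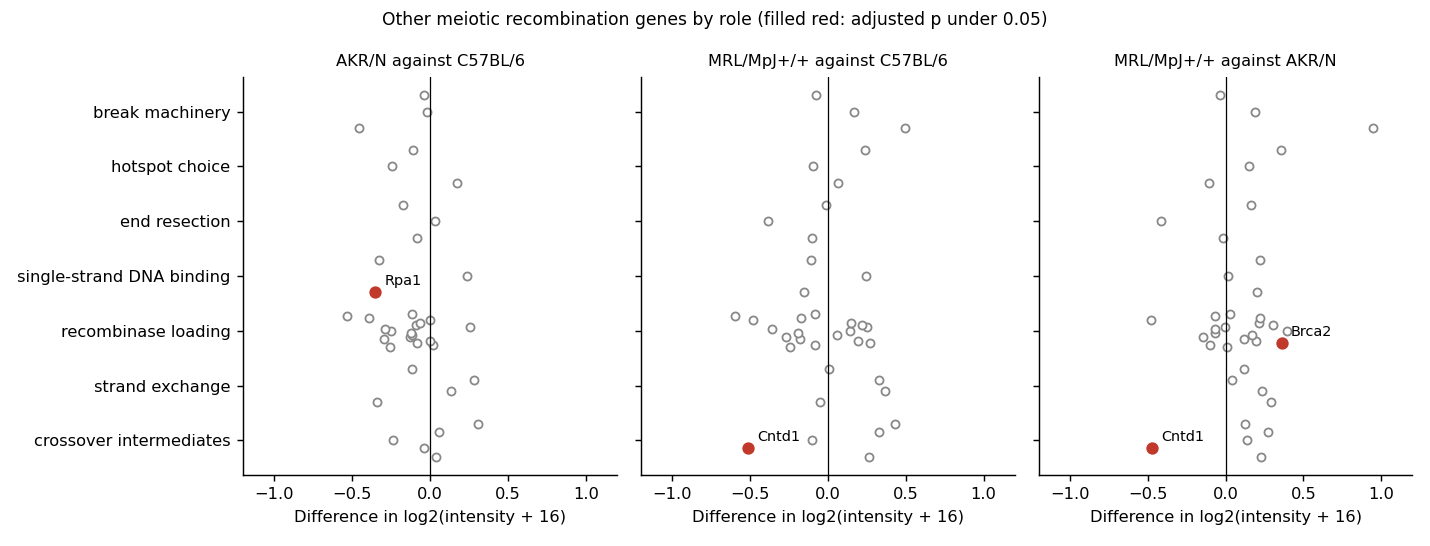
Each point is 1 of 38 tested recombination genes, grouped by role on the vertical axis, with its difference in log2(intensity + 16) on the horizontal axis; filled red points have adjusted p under 0.05. Only Rpa1, Brca2 and Cntd1 carry filled points, and the rest scatter on both sides of 0.

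Germ cell and somatic markers were read on the same arrays. Spermatocyte markers are of the cells in which meiotic recombination takes place. Against C57BL/6, AKR/N had 5 of 18 called lower and 1 higher by limma (median -0.11), beside 4.88% and 5.09% of all tested probe sets. Against AKR/N, MRL/MpJ+/+ had 1 lower and 6 higher (median 0.15), beside 3.69% and 3.22%. Against C57BL/6, MRL/MpJ+/+ had 3 lower and 2 higher (median 0.01), beside 4.95% and 5.07%. The summed intensity of the spermatocyte markers was 89.8% and 91.5% of the C57BL/6 mean on the AKR/N arrays, and 95.9% and 100.3% on those of MRL/MpJ+/+. This sum weighs markers by brightness. Its brightest, Ldhc and Ybx2, averaged 8360 and 4384 units and were not called in any comparison. None of the 18 is a member or in the list of recombination genes, and all 18 were tested. The 5 called lower in AKR/N than in C57BL/6 were Sycp1, Sycp2, Smc1b, Piwil2 and Ccna1. Sycp1, of the synaptonemal complex, averaged 1233, 578 and 949 units for C57BL/6, AKR/N and MRL/MpJ+/+, and its difference of AKR/N from C57BL/6 was -1.10 (adjusted p = 0.000716). Smc1b, a meiotic cohesin subunit, averaged 1255, 588 and 825 units in the same order, with a difference of -1.09 (adjusted p = 0.000458). Sycp2 differed by -0.60 there (adjusted p = 0.00829). These differences were as large as that of Spo11 or close to it, and Sycp1 and Smc1b had its order of strain means. The 1 marker called higher in AKR/N than in C57BL/6 was Syce2. It averaged 2521, 3289 and 3048 units for C57BL/6, AKR/N and MRL/MpJ+/+, the order of the Meiob means. Its differences from C57BL/6 were 0.38 in AKR/N (adjusted p = 0.00343 by limma) and 0.27 in MRL/MpJ+/+ (adjusted p = 0.0204). The part of the spermatocyte markers in the Spo11 result was not tested. In 1 setting each array was shifted by the median deviation of its spermatocyte markers. This shift was added after the data, and the planned centring given further on, were seen. The deviation was -0.07 and -0.11 on the AKR/N arrays, smaller in size than the differences of Sycp1 and Smc1b. With it, Spo11 differed from C57BL/6 by -0.64 in AKR/N (adjusted p = 0.0004 by limma) and by -0.45 in MRL/MpJ+/+ (adjusted p = 0.00472). Under that shift Meiob differed by 0.94 and 0.67, the brighter Dmc1 probe set by 0.53 in MRL/MpJ+/+ against AKR/N (adjusted p = 0.0267), and Spo11 by 0.19 between those strains (adjusted p = 0.162), no longer called. The shift moved the median of all probe sets to 0.13 in AKR/N against C57BL/6 and -0.13 in MRL/MpJ+/+ against AKR/N.

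Centring each array on the median level of those 18 markers, a value that rests on the middle markers of a list of unlike brightness, raised the AKR/N arrays. It moved the median of all probe sets by 0.50 in AKR/N against C57BL/6, and Spo11 then differed by -0.27 (adjusted p = 0.0606) there and by -0.28 (adjusted p = 0.131) in MRL/MpJ+/+. In MRL/MpJ+/+ against AKR/N the calls were lost too, at -0.01 for Spo11 (adjusted p = 0.938) and 0.32 for the brighter Dmc1 probe set (adjusted p = 0.150). Psmc3ip changed sign in that setting, to 0.37 and 0.47 at its probe sets in AKR/N against C57BL/6, and was called there (adjusted p = 0.0136 and 0.00258). Meiob differed by 1.31 in AKR/N and 0.84 in MRL/MpJ+/+ under the same centring, and was called in both.

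Other cell types moved with strain too. In AKR/N the summed markers of Sertoli cells, which nurse the germ cells, were at 114.9% and 118.4% of the C57BL/6 mean. Of 10 tested Sertoli markers 3 were called higher and 1 lower by limma, beside 5.09% and 4.88% of all tested probe sets. The lower was Kitl, at 68.3 against 202.7 units (-1.37). Clu, the brightest of the Sertoli list, was not called (adjusted p = 0.262). Markers of Leydig cells, the androgen source, summed to 160.7% and 176.3% in AKR/N. In MRL/MpJ+/+ Leydig markers were at 162.6% and 168.5%, and round spermatid markers at 81.3% and 84.5%. Of the latter 9 of 14 were called lower and none higher than in C57BL/6 by limma (12 lower and 0 higher at an unadjusted p under 0.05). Over all tested probe sets 4.95% were called lower and 5.07% higher in that comparison. Elongating spermatid markers summed to 83.5% and 92.5% in MRL/MpJ+/+ and to 88.9% and 93.9% in AKR/N. Of these 11 markers, 3 were called lower and 0 higher in MRL/MpJ+/+ than in C57BL/6 by limma. In AKR/N 1 was called lower and 1 higher, beside 4.88% and 5.09% of all tested probe sets. Markers of spermatogonia, the cells that precede meiosis, lay between 109.7% and 114.2% in both strains. In each strain 1 of 9 was called higher than in C57BL/6, beside 5.09% of all tested probe sets in AKR/N and 5.07% in MRL/MpJ+/+. The largest shifts were of short lists. In AKR/N the 3 tested T cell markers summed to 242.0% and 371.1%, which rested on Cd3d (3.16, adjusted p = 3.2e-05), while Cd3e and Cd8a were not called. The 4 adipose markers stood at 284.3% and 150.7% in AKR/N, with replicate 1 apart, and the single tested epididymis marker, Rnase10, at 17.0% and 6.59% in AKR/N and 21.3% and 16.6% in MRL/MpJ+/+. The part of these shifts in the member results was not tested.

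**Figure D4:**
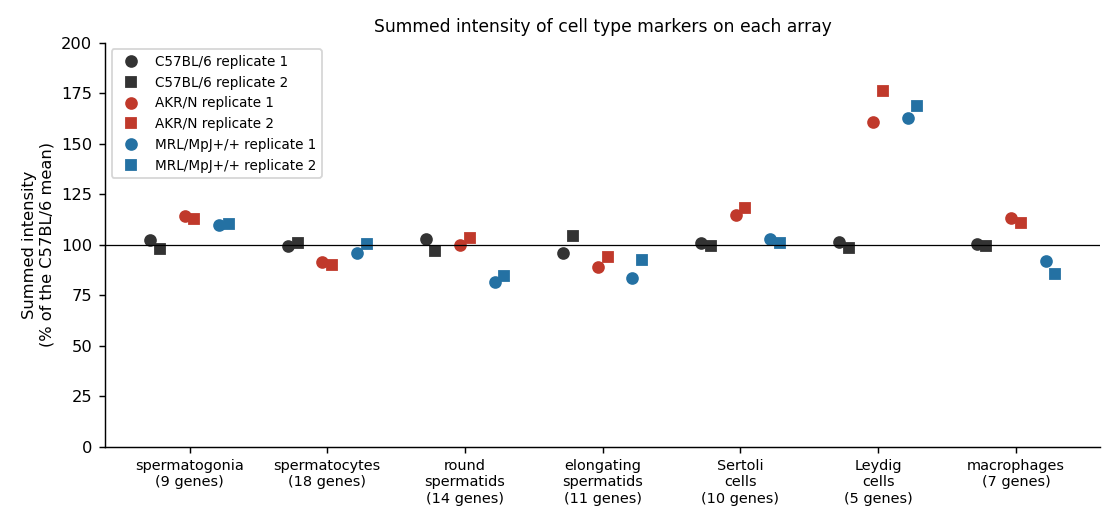
Points give the summed intensity of a cell type's markers on each of 6 arrays, as a percentage of the C57BL/6 mean. Circles are replicate 1 and squares replicate 2. The short adipose, T cell and epididymis lists are not drawn. Spermatocyte markers are lowest in AKR/N, at 89.8% and 91.5%, and Leydig markers stand above 160% in both AKR/N and MRL/MpJ+/+.

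**Figure D5:**
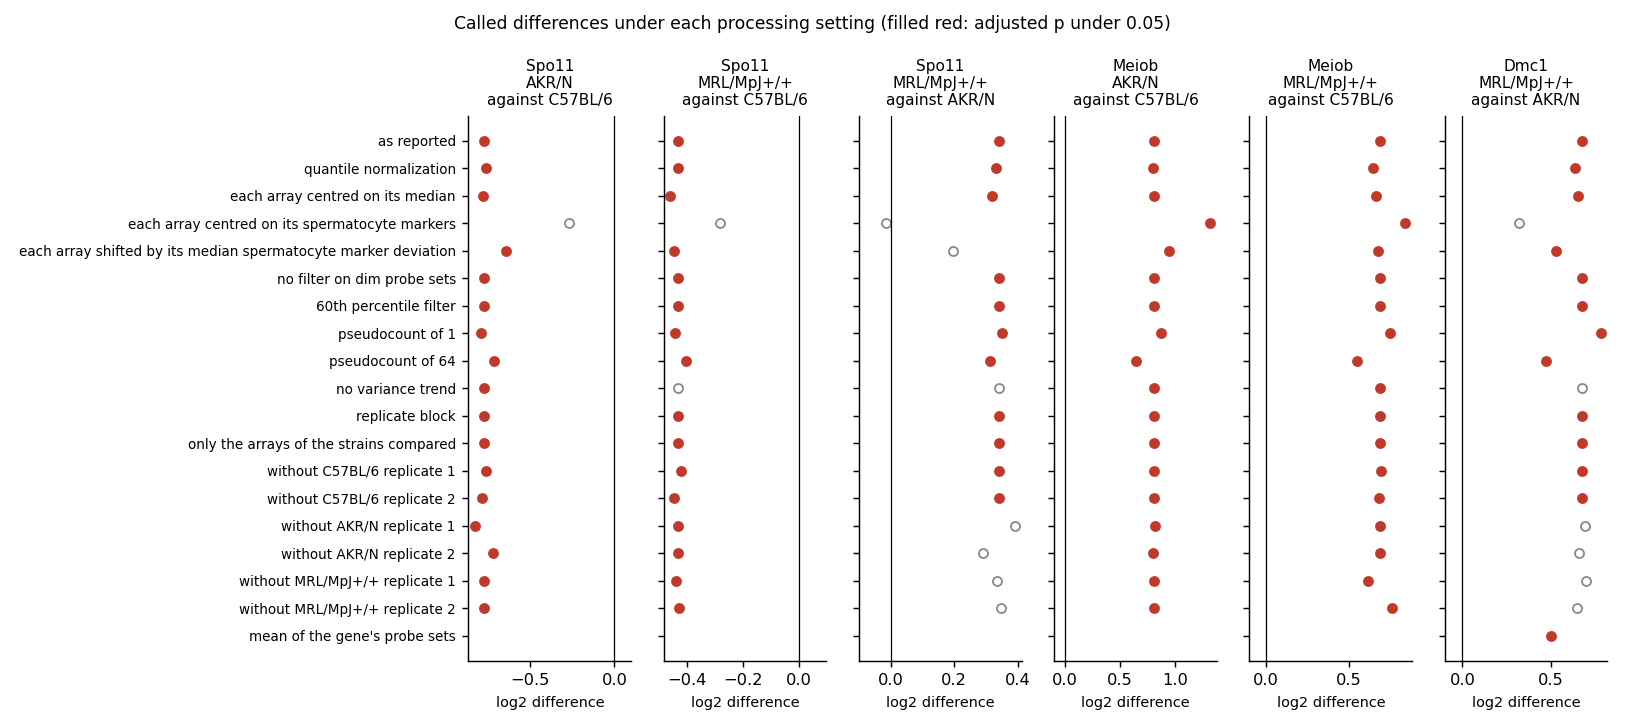
Each panel gives 1 called difference in log2 units (horizontal axis) under the reported setting and each alternative (vertical axis), with filled red points at adjusted p under 0.05. Meiob is filled in every setting, Spo11 in AKR/N against C57BL/6 in all but the centring on spermatocyte marker level, and both calls between MRL/MpJ+/+ and AKR/N open when 1 of their arrays is left out.

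Among 2376 other named genes called by the F test, those with the profile most like each called member over the 6 arrays were found by the root mean square difference of centred log2 values. For Spo11 they were Tesmin, a metallothionein-like protein of meiotic germ cells, at 0.0501, followed by Tmem59l (0.06) and Cep63, a centrosomal protein (0.0649). Tesmin had means of 1267, 730.2 and 910 units in C57BL/6, AKR/N and MRL/MpJ+/+, the same order as Spo11. For Dmc1 they were the transcription factors Creb1 (0.0314) and Pou6f1 (0.0536) and the chromatin protein Trrap (0.0541), and for Meiob Ubap2 (0.0366), the nuclear pore protein Aaas (0.0477) and the zinc finger gene Zfp944 (0.0510). Ubap2 had means of 697, 1171 and 1093 units in C57BL/6, AKR/N and MRL/MpJ+/+. With 6 arrays, many genes can share such a profile.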

How the data were processed

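Total RNA from testes of C57BL/6, AKR/N and MRL/MpJ+/+ mice was hybridised to 6 arrays, 2 per strain, grouped by the strain in the labels. Per the labels' protocols, RNA was extracted with Trizol and labelled with biotin after one-cycle cDNA synthesis. The authors deposited linear intensity values, whose mean was 125 on every array once 2% at each end was trimmed. Software for summarising probes: not given in the sources used here.

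Values were used as log2(intensity + 16), which understates changes of dim probe sets. After 64 control probe sets were left out, 29692 of 45037 passed the filter given above. The 6 arrays entered 1 model with a mean per strain, in limma 3.58.1 under R 4.3.3 (eBayes with a variance trend; 3 residual and 7.58 prior degrees of freedom); p-values measure the spread between these arrays, and the number of arrays limits the precision. The calculations were tested on simulated data. The members, lists, tests and alternatives were chosen with earlier results of these data known.

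The text names every member probe set, up to 6 called pathway genes per comparison, and the 3 nearest profiles of each member called by the F test. Alternatives were other normalizations, filters and pseudocounts, no variance trend, only the arrays compared, the replicate block and each array left out.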

Additional observations from a re-analysis of the deposited data

How the results depend on the processing

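Deviations of same-numbered arrays from their strain means correlated at 0.0425 to 0.0493 between strains, so replicate numbers were not taken as pairs. With the replicate number as a replicate block, 2 member probe sets were called in each comparison, as reported, and no member call changed; the counts over all probe sets were 3510, 3492 and 2549, in the order MRL/MpJ+/+ against C57BL/6, AKR/N against C57BL/6 and MRL/MpJ+/+ against AKR/N, against 2975, 2960 and 2052 reported. Without the variance trend they were 1212, 1138 and 421, with 0 members called between MRL/MpJ+/+ and AKR/N, where the filter on dim probe sets, if left out, gave 1327 over all. Centring each array on its spermatocyte marker level gave 1, 5 and 4 member calls, and 17187 probe sets in AKR/N against C57BL/6 and 8266 between MRL/MpJ+/+ and AKR/N. It turned Psmc3ip to 0.37 and 0.47 in AKR/N against C57BL/6 and to -0.34 between MRL/MpJ+/+ and AKR/N, Spo11 to -0.0134 there, and Rpa1, Brca2 and Cntd1 to 0.15, 0.42 and 0.47 in AKR/N against C57BL/6. Shifting by marker deviation gave 1 member and 3160 probe sets between MRL/MpJ+/+ and AKR/N, and there 84.4% of calls were lower, against 53.5% as reported; in AKR/N against C57BL/6 22.0% were lower, against 49.0%. Level centring left 20.4%, 2.30% and 96.8% lower in the order above. It moved the median of all probe sets by construction. With 1 array left out, the lone array of its strain is assumed to vary like the others; over such fits member calls were 2 in both comparisons with C57BL/6 and 0 to 2 between MRL/MpJ+/+ and AKR/N, and calls over all probe sets were 1483 to 2545, 1290 to 2607 and 694 to 2191 in the order above. Cntd1 in MRL/MpJ+/+ against C57BL/6 had adjusted p = 0.0836 without the variance trend and 0.0627 (-0.36) with level centring. Among members not called as reported, 3 settings called the dim Trip13 probe set in MRL/MpJ+/+ against C57BL/6. Those with a pseudocount of 64 and without the variance trend kept the filter that fixed its direction there. Level centring called Prdm9 (0.65, adjusted p = 0.0429), Trip13 1429295_s_at (0.55, 0.00615) and both Psmc3ip probe sets (0.0136 and 0.00258) in AKR/N against C57BL/6. Between MRL/MpJ+/+ and AKR/N it called Meiob (-0.47, 0.0157), Trip13 1429295_s_at (-0.50, 0.0230) and both Psmc3ip probe sets (0.0385 and 0.0182). The cause of these changes was not tested. Intensity near the filter limit restricts what can be read of Prdm9, Mnd1 and that Trip13 probe set.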
